A study of Mus musculus with 16 samples.

Results

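The proteasome is the large protease of the cytosol and nucleus that cuts up proteins tagged with ubiquitin. The genes described here are the rows of the deposited count table with a symbol for a constitutive proteasome subunit, an activator or an assembly chaperone (symbols opening with Psma, Psmb, Psmc, Psmd, Psme, Psmf or Psmg and a number, plus Pomp and Adrm1), without Psmb8, Psmb9 and Psmb10 and without pseudogenes. The rule found 49 genes among 48051 rows with a symbol, and 48 of them had enough counts to be tested. Psmb11, a subunit known from thymus, had no count in any library. Psmc3ip matched by its symbol alone. It codes for a meiotic recombination protein and is no subunit. It lay between 0.357 and 0.714 CPM (the gene's counts relative to the scaled total of the library) in all 16 libraries and passed no test below.

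RNA was sequenced from livers of C57BL/6J mice in 4 groups of 4 libraries, each with a time of 10 days. The groups were TSC1 wild type on control diet (WT-ctr), TSC1 wild type under the Gao-binge alcohol regimen (WT-EtOH), hepatic TSC1 KO on control diet (KO-ctr) and hepatic TSC1 KO under Gao-binge alcohol (KO-EtOH). Gao-binge is a chronic ethanol diet followed by a single large dose, and TSC1 is the partner of TSC2 in the complex that restrains the growth kinase mTORC1. The labels name no promoter or Cre line for the knockout, no deleted exon, and no sex or age of the mice. They also do not tie a library to a mouse, so the p-values speak of variation among 4 libraries, some of which may be technical.

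Each library held 14705675 to 21679065 counts. Tsc1 itself stood at 26.6 ± 2.52 CPM (SD, n = 4) in WT-ctr and 18.5 ± 3.29 in KO-ctr, and the groups did not overlap (exact permutation p = 0.0286, two-sided, the smallest that 4 against 4 libraries allow). After ethanol it stood at 18.4 ± 1.76 in WT-EtOH and 14.3 ± 1.93 in KO-EtOH, where the groups overlapped (exact permutation p = 0.0571). Hepatocyte markers were the highest of the cell lists, at a summed 111000 to 129000 CPM in WT-ctr, 118000 to 139000 in WT-EtOH, 61800 to 69600 in KO-ctr and 50700 to 105000 in KO-EtOH. The largest part of these sums was Alb, with means of 80600, 93100, 34500 and 48300 CPM in that order, so the sums mostly follow this 1 gene. On the control diet 2 of the 8 hepatocyte markers passed as lower in the knockout (25%, against 4.91% of all tested genes) and 6 did not pass. Cholangiocyte markers (8 genes, none at 0 in a whole group) summed to 53.1 to 80.3 CPM in WT-ctr, 44.1 to 52.3 in WT-EtOH, 282 to 534 in KO-ctr and 183 to 853 in KO-EtOH. Most of these sums was Spp1, with means of 51.3, 28.7, 316 and 373 CPM in that order. On the control diet 5 of the 8 cholangiocyte markers passed as higher in the knockout (62.5%, against 7.40% of all tested genes) and 3 did not pass. Monocyte and macrophage markers (11 genes, none at 0 in a whole group) summed to 137 to 202, 76.2 to 112, 170 to 242 and 162 to 461 CPM in the same order. KO-EtOH library 2 held the highest sum of the cholangiocyte and macrophage lists and the lowest hepatocyte sum (50700 CPM). It was also highest for stellate and myofibroblast markers (505 CPM) and dividing-cell markers (44 CPM), but not for lymphocyte, neutrophil or endothelial markers. The hepatocyte, cholangiocyte and macrophage lists move with genotype and with diet, and the part of cell types in the results below was not tested. In whole tissue, fewer cells of a type and less RNA per cell cannot be told apart.

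The core of the proteasome, the 20S particle, is a barrel of outer alpha rings and inner beta rings, and 3 beta subunits (Psmb5, Psmb6 and Psmb7) carry the cutting sites. The 19S particle caps the barrel. Its base holds a ring of ATPases (Psmc1 to Psmc6) that unfold the substrate, and its other subunits bind and remove ubiquitin. Psme genes code for alternative caps, Psmf1 for an inhibitor, and Psmg genes, Pomp, Psmd5, Psmd9 and Psmd10 for chaperones that assemble the particles. The subunit genes are known to be induced together when proteasome activity is short, through the transcription factor NRF1 (gene Nfe2l1), which binds antioxidant response elements (AREs).

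Promoters were taken from the RefSeq sequences of GRCm38.p6, in a window of 250 bases before to 50 after each start. The table held 41 of the 49 genes, 3 of them with several starts, of which the first was used. Psma8, Psmb1, Psmb2, Psmb7, Psmc3, Psmd3, Psmd7 and Psmg2 had no entry. The 250 bases before the start are shown for 5 genes on which the comparisons turn. Psmb4 and Psmb5 had the largest falls among the genes that passed the test in the comparison of the ethanol-fed groups, Psmc1 was lower on both diets, Psmd11 was higher in the ethanol-fed knockout and Psmd8 rose with ethanol in both genotypes. Capitals mark the ARE core TGACNNNGC and the ETS motif CCGGAAG on either strand (CTTCCGG on the other strand).
Psmb4 (chr3:94886959-94887208, minus strand): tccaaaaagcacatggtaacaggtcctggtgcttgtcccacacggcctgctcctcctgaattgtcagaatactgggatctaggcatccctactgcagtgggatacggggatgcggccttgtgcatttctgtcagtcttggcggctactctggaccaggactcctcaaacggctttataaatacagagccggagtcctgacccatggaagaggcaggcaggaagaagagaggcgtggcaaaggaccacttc
Psmb5 (chr14:54617996-54618245, minus strand): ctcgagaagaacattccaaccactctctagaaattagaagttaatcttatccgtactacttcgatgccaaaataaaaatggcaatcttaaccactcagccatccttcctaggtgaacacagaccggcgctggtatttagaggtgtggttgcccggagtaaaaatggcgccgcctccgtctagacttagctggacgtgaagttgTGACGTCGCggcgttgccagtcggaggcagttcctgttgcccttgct
Psmc1 (chr12:100109952-100110201, plus strand): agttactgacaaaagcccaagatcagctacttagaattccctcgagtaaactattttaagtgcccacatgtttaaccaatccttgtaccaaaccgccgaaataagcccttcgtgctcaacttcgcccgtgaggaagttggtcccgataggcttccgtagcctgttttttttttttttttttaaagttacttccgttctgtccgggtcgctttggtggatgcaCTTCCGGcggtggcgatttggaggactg
Psmd11 (chr11:80428365-80428614, plus strand): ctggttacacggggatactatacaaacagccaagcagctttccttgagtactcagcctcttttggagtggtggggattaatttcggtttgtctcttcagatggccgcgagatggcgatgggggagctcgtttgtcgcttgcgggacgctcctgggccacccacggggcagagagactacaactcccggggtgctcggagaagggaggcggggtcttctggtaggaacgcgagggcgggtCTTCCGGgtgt
Psmd8 (chr7:29180674-29180923, minus strand): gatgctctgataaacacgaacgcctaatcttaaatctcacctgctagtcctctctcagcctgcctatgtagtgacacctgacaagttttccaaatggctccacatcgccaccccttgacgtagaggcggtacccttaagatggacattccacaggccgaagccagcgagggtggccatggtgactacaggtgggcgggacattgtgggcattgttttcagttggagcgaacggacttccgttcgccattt

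In the Psmb5 sequence the ARE core lies at bases -47 to -39 from the start. The ETS motif lies at -28 to -22 in Psmc1 and at -11 to -5 in Psmd11, so 1 gene that was lower and 1 that was higher in the ethanol-fed knockout both hold it. These positions are counted from the RefSeq start. In GENCODE M21 the Psmc1 gene starts further upstream, at 100110154, so its ETS motif lies inside the gene by that annotation. The last bases shown for Psmb4, Psmb5 and Psmd8 also lie inside their GENCODE genes. Over the whole window the ETS motif was found in 16 of the 41 promoters (39.0%), against 9.12% of all 27025 promoters and 17.5% of the 10408 promoters of tested genes. It was in 0 of the 12 promoters of 20S alpha and beta ring genes and in 10 of the 15 of 19S ATPase and non-ATPase genes, a split seen only after the values were known. The ARE core was in 7 promoters (17.1%, against 12.5% of all and 14.7% of tested genes): Psmb5, Psmb6, Psmc6, Psmd12, Adrm1, Psmd9 and Psme4. The CCAAT box was in 36.6% (37.9% of all), and the GC box GGGCGG in 58.5% (35.9% of all and 62.4% of tested genes). Of the 14 genes that were lower in the knockout after ethanol and had a promoter, 3 held the ARE core and 5 the ETS motif, and of the other 27 promoters 4 and 11 did. Both strands were searched, no motif's letters were removed where another overlapped it, and a match is a description of these letters only.

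The levels of subunits of one particle, which are built in fixed proportions as proteins, spread widely as RNA. On the scale of CPM per kb of exon in WT-ctr, the highest were Psma6 (83.7 ± 7.22, SD, n = 4) and Psmb4 (81.7 ± 5.91), which do not differ beyond their spread. Psmb6 (62.2 ± 5.94), Psmc1 (61.5 ± 4.45) and Psmc5 (57.6 ± 8.78) followed, again within each other's spread. The median was 47.8 CPM per kb for the 6 ATPases, 31.2 for the beta ring genes, 25.6 for the alpha ring genes, 25.4 for the 12 other 19S subunits, 12.8 for the 20S chaperones and 7.88 for the 19S chaperones. Psma8, the testis form of an alpha subunit, was at 0.279 CPM per kb, and Psmb11 was at 0. Both are counted in the ring medians above and lower them. Without them the middle gene was Psma1 (31.5) in the alpha ring and Psmb5 (32.6) in the beta ring. In KO-EtOH the order had changed. Psmd8 had moved from rank 9 in WT-ctr (43.8 ± 1.67) to rank 1 (70.7 ± 6.26), and Psmb4 from rank 2 to rank 8 (45.7 ± 4.72). Exon lengths are unions over all annotated transcripts of GENCODE M21 on GRCm38, retained introns included, which need not be the annotation used for counting.

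**Figure D1:**
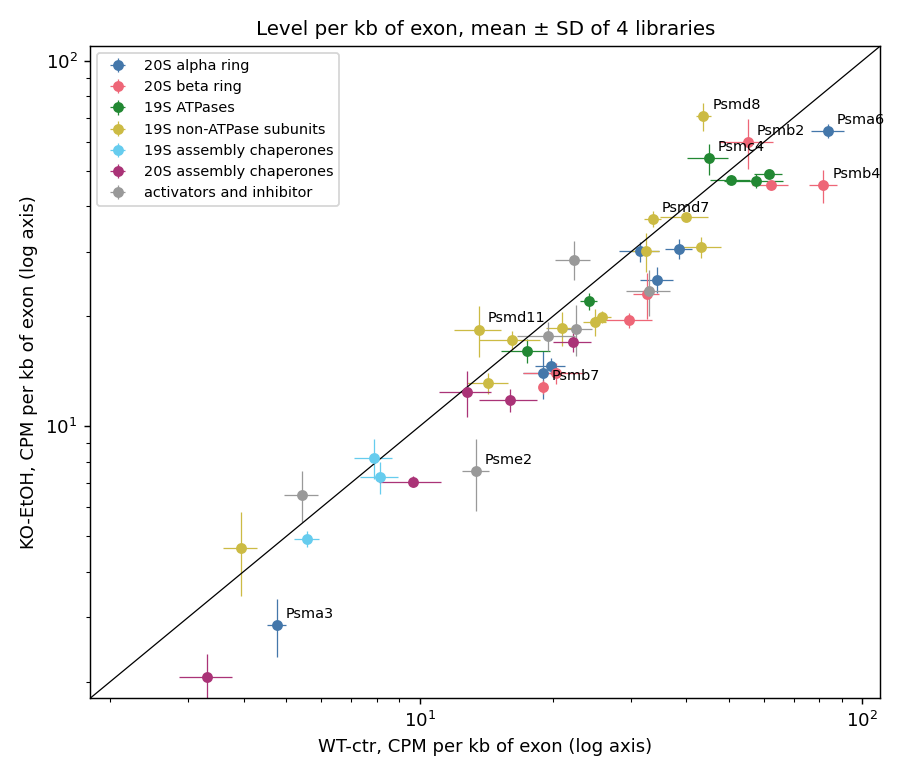
Level of each tested gene except Psma8 and Psmc3ip in CPM per kb of exon, WT-ctr on the horizontal and KO-EtOH on the vertical axis, both logarithmic, with bars of ± SD over 4 libraries and the line of equal level. Psmd8 lies above the line (43.8 in WT-ctr, 70.7 in KO-EtOH) and Psmb4 below it (81.7 and 45.7).

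Within groups, the subunits rose and fell together from library to library. Over the 33 tested ring and 19S subunits, the 528 pairwise correlations of log2 CPM after removing group means had a median of 0.477 (quartiles 0.264 and 0.654), and 499 of them (94.5%) were above 0. Over all tested genes the median was 0 and 49.9% of pairs were above 0. These are descriptions over 16 libraries whose points share a library and its scaling factor. Psmc3 (median r with the others 0.67) and Psmb3 (0.668) followed the rest most closely, and Psmd8 (0.048) and Adrm1 (0.106) least. WT-EtOH library 1 and WT-ctr library 2 were low for most subunits. The median log2 difference of the 33 subunits from the WT-ctr mean ran from -0.14 to 0.10 in WT-ctr, -0.27 to 0.09 in WT-EtOH, -0.24 to -0.13 in KO-ctr and -0.31 to -0.23 in KO-EtOH, so both wild-type groups spread more than the knockout groups did.

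**Figure D2:**
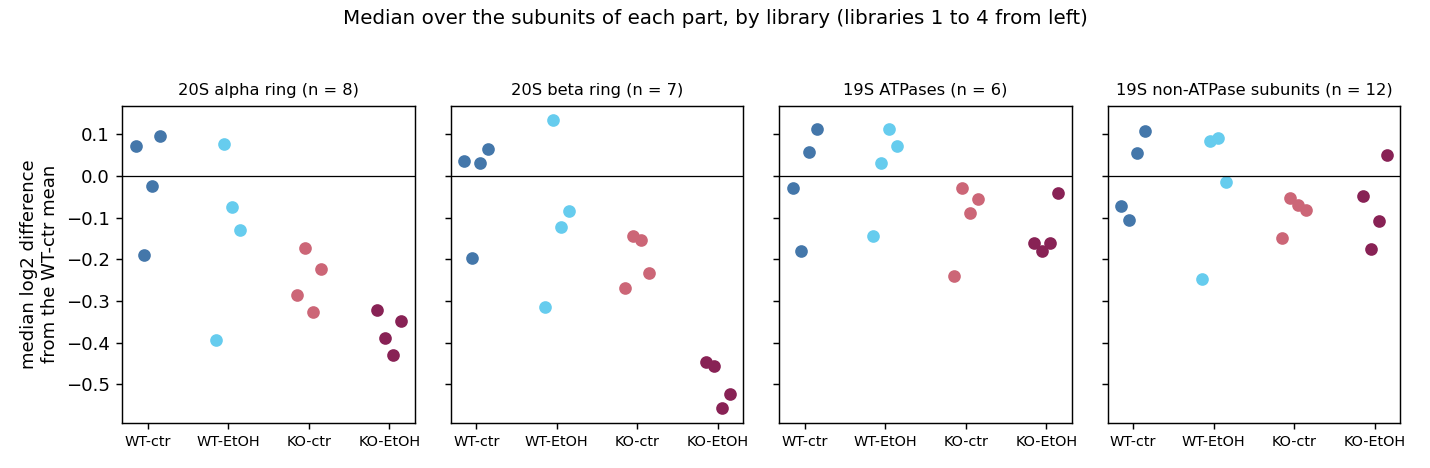
Median over the tested subunits of each part of the proteasome of the log2 difference from the WT-ctr mean (vertical axis), 1 point per library, for the 4 groups (horizontal axis). For the beta ring all 4 KO-EtOH libraries lie between -0.56 and -0.45, below the other 12, while for the 19S non-ATPase subunits the groups overlap.

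The comparison of KO-ctr with WT-ctr asks what loss of Tsc1 does without ethanol. On the control diet, 5 of the 48 tested genes were lower in the knockout, and none passed the test as higher. They were the alpha subunit Psma4, the beta subunits Psmb4 and Psmb1, the ATPase Psmc1 and the 20S chaperone Psmg2. The 5 make 10.4% of the 48, against 4.91% of all 14346 tested genes that were lower and 7.40% that were higher (edgeR quasi-likelihood test, Benjamini-Hochberg adjusted p under 0.05 over all tested genes). At an unadjusted p under 0.05, 15 were lower and 1 higher. The median log2 fold change of the 48 genes was -0.15, against 0.01 over all tested genes, and 39 of the 48 values were negative. In 13 genes every KO-ctr library was below every WT-ctr library, and in 0 every one was above. The share of all tested genes with such a split, or with an unadjusted p under 0.05, was not computed. These counts therefore have no background to be read against.

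Among the alpha ring genes 1 of 8 was lower. Psma4, part of the gate of the barrel, stood at 94.6, 83.8, 88.5 and 98 CPM in WT-ctr libraries 1 to 4 and at 71.8, 74.1, 60.3 and 68.3 in KO-ctr. Every knockout library was below every wild-type library, with a log2 fold change of -0.41 (SE 0.10, edgeR adjusted p = 0.0101). Among the beta ring genes 2 of 7 were lower. Psmb4 (chr3:94884093-94886961, minus strand, 7 exon blocks), a structural beta subunit without a cutting site, stood at 172, 144, 158 and 163 CPM in WT-ctr and at 114, 134, 123 and 123.5 in KO-ctr. The groups did not overlap, and the log2 fold change was -0.37 (SE 0.11, edgeR adjusted p = 0.0331). Psmb1, also structural, was lower by a log2 fold change of -0.35 (edgeR adjusted p = 0.0417), from 137 ± 17.3 to 107 ± 7.21 CPM (SD, n = 4).

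Of the 6 ATPases 1 was lower. Psmc1 (chr12:100110154-100123405, plus strand) stood at 117, 108, 123 and 128 CPM in WT-ctr and at 92.9, 99.97, 86.9 and 94.2 in KO-ctr. Again no knockout library reached a wild-type one, and the log2 fold change was -0.34 (SE 0.10, edgeR adjusted p = 0.0286). The other 12 subunits of the 19S particle had 0 called, with a median log2 fold change of -0.10. Psmd6, a subunit of the lid, had the smallest p of them, at 69.4, 70.6, 74.3 and 76.2 CPM in WT-ctr and 57.9, 63.7, 65.6 and 62.4 in KO-ctr (log2 fold change -0.22, edgeR adjusted p = 0.0791).

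The largest change was in the chaperone Psmg2, which pairs with Psmg1 to start assembly of the alpha ring (chr18:67641599-67654162, plus strand). It stood at 20.4, 15.2, 14.4 and 17.0 CPM in WT-ctr and at 12.1, 11.4, 11.6 and 12.5 in KO-ctr, without overlap (log2 fold change -0.49, SE 0.12, edgeR adjusted p = 0.0123). Of the 19S chaperones none passed the test. Psmd9 stood at 65.1, 52.5, 57.1 and 53.8 CPM in WT-ctr and 81.8, 71.7, 66.5 and 63.4 in KO-ctr, and these ranges overlap (log2 fold change 0.31, edgeR adjusted p = 0.0759). The activators had 0 called of 6. Psme1, which pairs with Psme2 in the interferon-induced PA28 cap, stood at 83.4, 66, 66.5 and 75.5 CPM in WT-ctr and 55.2, 64.1, 55.7 and 60.7 in KO-ctr (log2 fold change -0.31, edgeR adjusted p = 0.0869).

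Of the 5 genes, Psma4 and Psmg2 passed whichever 1 library was left out. Without WT-ctr 1, 3 or 4 or KO-ctr 1, 3 or 4 the count of lower genes was 2, and without WT-ctr 1 or KO-EtOH 4 Psmd9 passed as higher. Scaling by total counts left 0 lower and 0 higher, with 29 of 48 values negative. That scaling moved the median of all tested genes to 0.12. A change of scaling shifts all genes of a comparison nearly alike. The distance of the 48 genes below that median, 0.15 on the log2 scale under either scaling, is therefore no check of the calls.

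**Figure D3:**
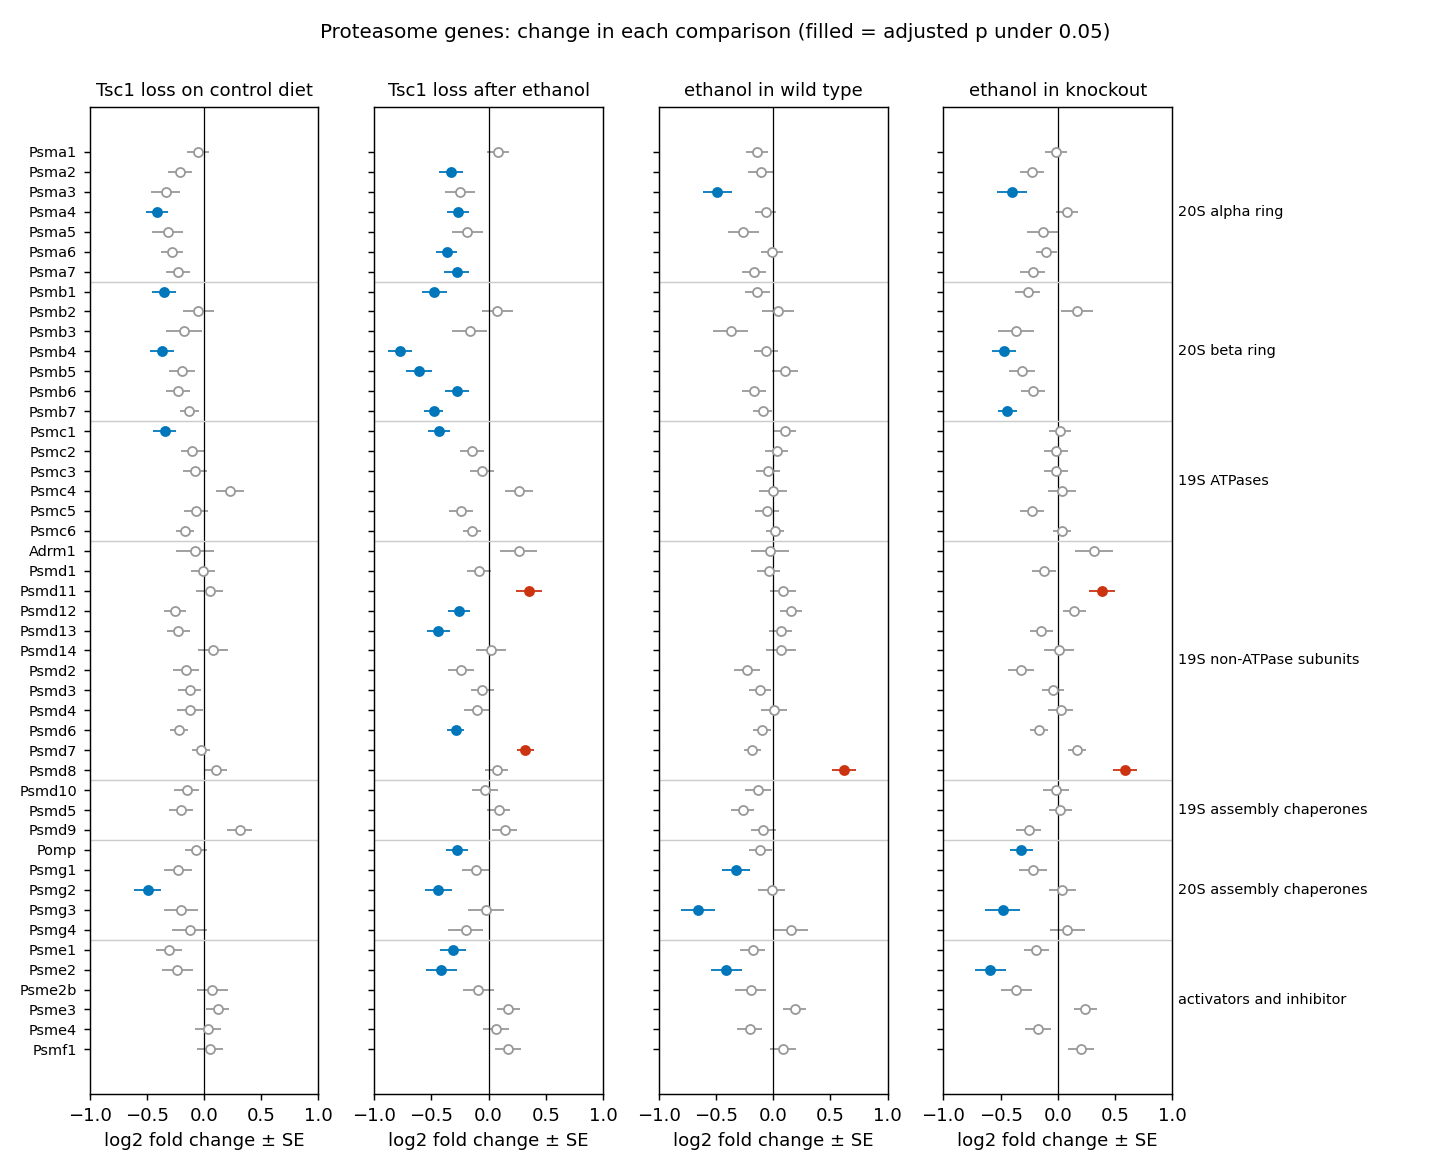
Log2 fold change ± SE (horizontal axis, edgeR fit over 16 libraries) of every tested gene except Psma8 and Psmc3ip in the 4 pairwise comparisons, grouped by role. Filled points have an adjusted p under 0.05 (blue lower, red higher), and the second panel, the loss of Tsc1 after ethanol, holds 17 blue and 2 red points.

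The comparison of KO-EtOH with WT-EtOH asks for the effect of Tsc1 loss under alcohol. Here 17 of the 48 genes were lower in the knockout and 2, Psmd11 and Psmd7, were higher. The 17 are 35.4% of the 48, against 19.1% of all tested genes lower. The 2 are 4.17%, against 19.6% of all tested genes higher. The median log2 fold change was -0.18, against -0.01 over all tested genes, and 35 values were negative. In 13 genes all KO-EtOH libraries lay below all WT-EtOH libraries, and in 2 all lay above, again without a share of all tested genes to set beside them.

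The beta ring moved furthest, with 5 of 7 genes lower and a median log2 fold change of -0.47. Psmb4 stood at 139.7, 182, 139.6 and 149.8 CPM in WT-EtOH and at 102.5, 88.0, 84.6 and 81.8 in KO-EtOH. The knockout libraries all lay below the wild-type ones, by a log2 fold change of -0.78 (SE 0.11, edgeR adjusted p = 6.17e-05), which is 1.71-fold lower. The chymotrypsin-like subunit Psmb5 (chr14:54614119-54618022, minus strand), the target of the drug bortezomib, stood at 27.4, 34.8, 32.2 and 31.6 CPM in WT-EtOH and 21.4, 24.2, 19.97 and 17.0 in KO-EtOH. It was 1.52-fold lower (log2 fold change -0.61, SE 0.11, edgeR adjusted p = 6.19e-04), again without overlap. The trypsin-like subunit Psmb7 (chr2:38588036-38644087, minus strand) stood at 54.0, 68.5, 59.7 and 61.7 CPM in WT-EtOH and 45.0, 41.1, 43.6 and 45.1 in KO-EtOH. Its groups did not overlap either, and it was 1.39-fold lower (log2 fold change -0.48, SE 0.08, edgeR adjusted p = 4.15e-04). The third cutting subunit, the caspase-like Psmb6, passed with a smaller change (log2 fold change -0.27, edgeR adjusted p = 0.0486), from 103 ± 16.8 to 85.5 ± 2.28 CPM (SD, n = 4). This call is weak: Psmb6 no longer passed in 13 of the 16 fits with 1 library left out (log2 fold change -0.34 to -0.15). Psmb1 was lower by -0.47 on the log2 scale (edgeR adjusted p = 0.0026). Psmb2 (0.08) and Psmb3 (-0.17) did not pass.

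In the alpha ring 4 of 8 genes were lower, with a median log2 fold change of -0.27. Psma6 stood at 91.0, 111, 109.8 and 98.2 CPM in WT-EtOH and 84.2, 76.6, 78.3 and 78.9 in KO-EtOH. Its groups did not overlap (log2 fold change -0.37, SE 0.10, edgeR adjusted p = 0.00608). Psma2 (-0.33), Psma7 (-0.28) and Psma4 (-0.27) also passed, while Psma1 was at 0.08 and did not. With 1 library left out, Psma7 no longer passed in 12 of the 16 fits, Psma4 in 8 and Psma2 in 3.

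The ATPases had 1 of 6 lower. Psmc1 stood at 107, 148, 130.4 and 126 CPM in WT-EtOH and at 95, 92.2, 98 and 93.7 in KO-EtOH, without overlap (log2 fold change -0.43, SE 0.10, edgeR adjusted p = 0.00262). Psmc4, at 97.1 ± 15.9 CPM in WT-EtOH and 117 ± 11.6 in KO-EtOH (SD, n = 4), had the highest value of the ATPases, a log2 fold change of 0.27 that did not pass (edgeR adjusted p = 0.0898).

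The other 19S subunits split, with 3 of 12 lower and 2 higher and a median log2 fold change of -0.07. Psmd13, a lid subunit, stood at 77.2, 106, 86.3 and 83.4 CPM in WT-EtOH and 69.6, 70.1, 61.1 and 59.2 in KO-EtOH, all below (log2 fold change -0.44, SE 0.10, edgeR adjusted p = 0.00297). Psmd6 stood at 61.5, 67.5, 71.7 and 71.6 CPM in WT-EtOH and 58.1, 52.9, 56.2 and 55.7 in KO-EtOH, also all below (log2 fold change -0.29, edgeR adjusted p = 0.00826). The third was the lid subunit Psmd12 (-0.26, edgeR adjusted p = 0.0419). Its call is weak, as it no longer passed in 13 of the 16 fits with 1 library left out. Against these, Psmd11 (chr11:80428615-80473248, plus strand), a lid subunit known in human cells to affect how much 26S proteasome is assembled, stood at 83.5, 89.9, 105 and 89.6 CPM in WT-EtOH and 106, 105.4, 114 and 145 in KO-EtOH. The libraries did not overlap, though the highest wild-type and the lowest knockout library were close (104.8 and 105.4 CPM), and the log2 fold change was 0.35 (SE 0.12, edgeR adjusted p = 0.0223). Psmd7 (chr8:107580381-107588464, minus strand), partner of the deubiquitinase Psmd14, stood at 62.1, 69.4, 71.0 and 65.5 CPM in WT-EtOH and 83.1, 86.7, 77.8 and 87.4 in KO-EtOH. All knockout libraries were above all wild-type ones (log2 fold change 0.32, SE 0.08, edgeR adjusted p = 0.00411).

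Of the 5 chaperones of the 20S particle 2 were lower. Psmg2 stood at 14.2, 16.3, 16.6 and 19.4 CPM in WT-EtOH and 12.2, 12.1, 11.8 and 12.9 in KO-EtOH, all below (log2 fold change -0.44, SE 0.12, edgeR adjusted p = 0.00817). Pomp, which seats the beta subunits, was lower by -0.28 on the log2 scale (edgeR adjusted p = 0.0357). Both subunits of the PA28 cap passed as lower too. Psme2 stood at 16.6, 20.8, 17.4 and 16.2 CPM in WT-EtOH and 16.9, 14.5, 10.9 and 10.9 in KO-EtOH, overlapping through KO-EtOH library 1 (log2 fold change -0.41, SE 0.14, edgeR adjusted p = 0.025), and Psme1 was at -0.31 (edgeR adjusted p = 0.0361). With 1 library left out, Pomp no longer passed in 8 of the 16 fits, Psme1 in 6 and Psme2 in 3. The 19S chaperones, Psme3, Psme4 and Psmf1 did not pass.

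**Figure D4:**
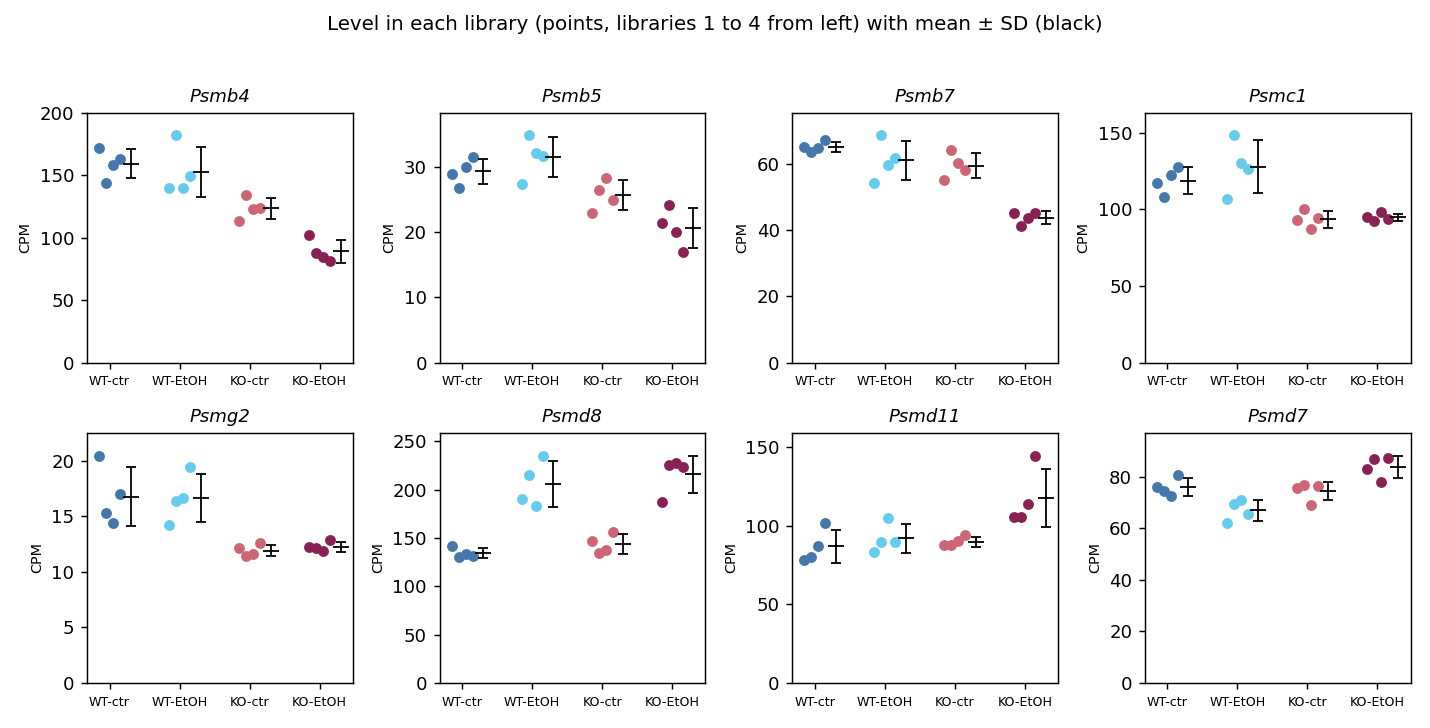
CPM (vertical axes, from 0) of 8 genes in each library of the 4 groups (horizontal axes), with mean ± SD in black. For Psmb4, Psmb5 and Psmb7 the KO-EtOH libraries lie below all WT-EtOH libraries, and for Psmd8 both ethanol groups lie above both control-diet groups.

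The calls for Psmb4, Psmb5, Psmb7, Psmb1, Psma6, Psmc1, Psmd13, Psmd6, Psmd7 and Psmg2 in the ethanol-fed knockout held without any 1 library, and the log2 fold change of Psmb4 ranged from -0.85 to -0.67. The count of 17 moved more. It was 9 without WT-EtOH 2, 10 without KO-EtOH 3 or KO-EtOH 4 and 11 without WT-EtOH 4, without WT-ctr 4 or without KO-EtOH libraries 1 and 2 together. Psmd11 was lost without KO-EtOH 4 (log2 fold change 0.25, edgeR adjusted p = 0.0837) or WT-EtOH 1 (edgeR adjusted p = 0.0676). Scaling by total counts moved the median of all tested genes to 0.19 and of the 48 to 0.03, left 3 lower (Psmb4, Psmb5 and Psmb7) and made 7 higher. The 48 genes lay 0.16 below the median of all genes on the log2 scale under that scaling and 0.17 below it under the one used here. Since scaling shifts all genes nearly alike, this likeness was fixed beforehand and is no check of the calls.

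The comparison of WT-EtOH with WT-ctr asks what alcohol does in wild-type liver. Of the 48 genes 4 were lower (8.33%, against 15.9% of all tested genes) and 1 was higher (2.08%, against 17.6%). The median log2 fold change was -0.06, against -0.01 over all tested genes. The 1 that rose was Psmd8 (chr7:29174188-29180701, minus strand), a subunit known in yeast to join the lid last. It stood at 141, 130.2, 134 and 131 CPM in WT-ctr and at 190.3, 215, 183 and 234.5 in WT-EtOH. The groups were far apart, by a log2 fold change of 0.62 (SE 0.10, edgeR adjusted p = 2.58e-04), or 1.54-fold.

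The genes that fell were Psma3, the 20S chaperones Psmg3 and Psmg1, and Psme2. Psma3, at 17.5, 18.7, 18.2 and 19.7 CPM in WT-ctr and 11.5, 13.8, 12.1 and 15.4 in WT-EtOH, did not overlap between diets (log2 fold change -0.49, SE 0.13, edgeR adjusted p = 0.00762). Psmg3, which with Psmg4 supports alpha ring assembly, stood at 9.58, 7.73, 10.4 and 10.6 CPM in WT-ctr and 6.51, 6.50, 4.64 and 6.59 in WT-EtOH. It too was lower in every ethanol library (log2 fold change -0.66, SE 0.15, edgeR adjusted p = 0.00335). Psme2 stood at 25.4, 21.4, 23.7 and 23.8 CPM in WT-ctr against 20.8 or less in WT-EtOH (log2 fold change -0.41, SE 0.14, edgeR adjusted p = 0.0272), without overlap. Psmg1 was at -0.32 (edgeR adjusted p = 0.0484). With 1 library left out, Psmg1 no longer passed in 13 of the 16 fits and Psme2 in 4. Of the other roles, the beta ring gene with the smallest p was Psmb3, at 45.8, 37.6, 48.0 and 55.4 CPM in WT-ctr and 25.3, 49.3, 35.5 and 34.5 in WT-EtOH (log2 fold change -0.37, edgeR adjusted p = 0.0729). Its groups overlapped. The 19S chaperone Psmd5 stood at 38.3, 37.7, 42.3 and 42.5 CPM in WT-ctr and 35.0, 27.1, 39.5 and 32.0 in WT-EtOH (log2 fold change -0.27, edgeR adjusted p = 0.053), and no ATPase passed, the highest log2 fold change among them being 0.11 for Psmc1 (edgeR adjusted p = 0.422). The count of lower genes was 2 without WT-ctr 4, WT-EtOH 1 or WT-EtOH 4 and 7 without WT-EtOH 2. It was 11 under scaling by total counts, where the median of all tested genes was -0.14. Psmd8, Psma3 and Psmg3 passed without any 1 library.

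The comparison of KO-EtOH with KO-ctr asks the same in the knockout. Here 6 genes were lower (12.5%, against 7.11% of all tested genes) and 2 were higher (4.17%, against 7.0%), with a median log2 fold change of -0.11 against 0.00 over all tested genes. In 12 genes every KO-EtOH library lay below every KO-ctr library, and in 3 every one lay above. For these counts too the share of all tested genes was not computed. This comparison shares its KO-EtOH libraries with the genotype comparison above, so the values of the same genes in both are not independent. Psmd8 rose here as well, from 147, 134, 137.5 and 156 CPM in KO-ctr to 187, 226, 227.5 and 223.5 in KO-EtOH (log2 fold change 0.59, SE 0.10, edgeR adjusted p = 0.00164). All 8 ethanol-fed libraries of either genotype were above all 8 control-diet libraries. Psmd11 stood at 87.5, 87.4, 90.0 and 93.9 CPM in KO-ctr and rose in every KO-EtOH library (log2 fold change 0.39, SE 0.12, edgeR adjusted p = 0.0326). It no longer passed without any 1 of the KO-ctr libraries, KO-EtOH 3 or KO-EtOH 4.

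In the beta ring 2 of 7 fell. The log2 fold change of Psmb4 was -0.47 (SE 0.11, edgeR adjusted p = 0.00884) and that of Psmb7 -0.44 (SE 0.08, edgeR adjusted p = 0.00298). Psmb7 stood at 55.1, 64.2, 60 and 58.1 CPM in KO-ctr, above every KO-EtOH library. Psmb5 was at -0.31 and did not pass (edgeR adjusted p = 0.0724). Of the 4 genes lower with ethanol in wild type, all but Psmg1 passed here too. Psma3 went from 14.7, 15.6, 15 and 13.5 CPM to 13.1, 10.9, 8.44 and 12.0 (log2 fold change -0.40, edgeR adjusted p = 0.0471), Psmg3 from 7.51, 8.99, 8.44 and 8.34 to 6.75, 5.17, 6.78 and 5.18 (-0.48, edgeR adjusted p = 0.0453). Psme2 went from 17.7, 20.5, 20.1 and 21.8 CPM to a highest value of 16.9 (-0.59, SE 0.14, edgeR adjusted p = 0.0101). All 3 were lower in every KO-EtOH library. The calls of Psma3 and Psmg3 in the knockout are weak: they no longer passed in 13 and 12 of the 16 fits with 1 library left out. Pomp fell from 108, 122.5, 104 and 108 CPM in KO-ctr to 95.4, 82.2, 88.4 and 89.0 (-0.32, edgeR adjusted p = 0.0403). It no longer passed in 10 of the 16 fits with 1 library left out. Among the ATPases the smallest p was that of Psmc5, at 66.3, 79.0, 78.6 and 81.9 CPM in KO-ctr and 67.9, 66.5, 65.7 and 61.4 in KO-EtOH, with overlap (-0.23, edgeR adjusted p = 0.16). Psmb4, Psmb7, Psme2 and Psmd8 passed without any 1 library, whereas the count of lower genes was 3 without WT-ctr 3, WT-ctr 4, KO-ctr 1, KO-ctr 2, KO-ctr 4, KO-EtOH 3 or KO-EtOH 4.

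Whether ethanol acted differently in the 2 genotypes was tested as an interaction. None of the 48 genes passed in edgeR, against 1.81% of all tested genes (0.523% higher and 1.28% lower). At an unadjusted p under 0.05 there were 3 lower and 1 higher, and DESeq2 called 1 higher and 0 lower. The share of all tested genes at that unadjusted p was not computed. The 3 were Psmb5 (-0.42, SE 0.16, edgeR adjusted p = 0.166), Psmb4 (-0.41, SE 0.15, edgeR adjusted p = 0.155) and Psmb7 (-0.35, SE 0.12, edgeR adjusted p = 0.124), all of the beta ring, whose log2 fold changes with ethanol were 0.10, -0.06 and -0.09 in wild type. The 1 was Psmd7 (0.35, SE 0.11, edgeR adjusted p = 0.102), which DESeq2 called (0.36, adjusted p = 0.0192). Psmd7 stood at 76.1, 74.5, 72.6 and 80.6 CPM in WT-ctr and 75.7, 76.7, 69.2 and 76.4 in KO-ctr. By the edgeR test, a genotype difference that depends on diet is therefore not shown for any of the 48 genes.

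The summed level of the 49 genes was 3487 ± 216 CPM (SD, n = 4) in WT-ctr, 3399 ± 301 in WT-EtOH, 3202 ± 109 in KO-ctr and 3089 ± 75.6 in KO-EtOH. As a plain share of all counts, with no scaling, it was 0.346%, 0.306%, 0.345% and 0.321%. The lowest group was KO-EtOH by CPM and WT-EtOH by share, so the order of the groups depends on the scaling factors, which ran from 0.82 to 1.2 over the libraries.

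The catalytic subunits of the immunoproteasome, Psmb8, Psmb9 and Psmb10, replace Psmb5, Psmb6 and Psmb7 in immune cells and under interferon. With ethanol in wild type all 3 fell, by log2 fold changes of -0.86 (edgeR adjusted p = 0.00161), -0.76 (adjusted p = 0.0164) and -0.68 (adjusted p = 0.00597) in that order. In the knockout Psmb8 (-0.54, edgeR adjusted p = 0.048) and Psmb10 (-0.69, edgeR adjusted p = 0.0133) fell, and Psmb9 was at -0.68 (edgeR adjusted p = 0.0517). In the comparison of the ethanol-fed groups Psmb8 was higher in the knockout. It stood at 12.9, 14.1, 11.8 and 11.6 CPM in WT-EtOH and 31.02, 18.85, 17.8 and 15.3 in KO-EtOH, without overlap (log2 fold change 0.72, SE 0.18, edgeR adjusted p = 0.0048). Psmb9 was higher as well (0.60, edgeR adjusted p = 0.0459), and Psmb10 was at -0.02. On the control diet none of the 3 passed. The summed macrophage markers given above, like Psmb8, were lower in WT-EtOH than in WT-ctr and higher in KO-EtOH than in WT-EtOH. With ethanol in the knockout Psmb8 fell, while the 11 macrophage markers had a median log2 fold change of 0.25. Of these 11 values 8 were positive and 3 negative. The part of macrophages in the values of Psmb8 was not tested.

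Among the regulators of proteasome genes, Nfe2l1 did not pass in any comparison, with log2 fold changes of 0.21, 0.19, 0.23 and 0.21 in the order above and means of 114, 134, 132 and 153 CPM in WT-ctr, WT-EtOH, KO-ctr and KO-EtOH. Its helpers did in 1 comparison: Ddi2, the protease that frees NRF1 (-0.42, edgeR adjusted p = 0.0396), and Ngly1, which removes its sugar chains (-0.36, edgeR adjusted p = 0.0126), were lower in the ethanol-fed knockout. Of the 10 regulators 1 was higher and 4 were lower there (10% and 40%, against 19.6% and 19.1% of all tested genes). Stat3 (-1.05, edgeR adjusted p = 0.00569) and Maff were the other 2 that fell and Foxo4 (0.39, edgeR adjusted p = 0.0125) the 1 that rose. With ethanol in wild type 3 were higher and 2 lower (30% and 20%, against 17.6% and 15.9% of all tested genes). On a list this short these shares are not far from those of all genes. Foxo4 fell (-0.75, edgeR adjusted p = 1.31e-04) and Stat3 rose (0.96, edgeR adjusted p = 0.011).

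Of 8 proteins that associate with the proteasome but lie outside the symbol rule, 3 were lower in the ethanol-fed knockout and 0 higher. These are 37.5% and 0%, against 19.1% and 19.6% of all tested genes. Zfand5, an activator of the 26S proteasome, stood at 90.3, 58.1, 82.5 and 68.2 CPM in WT-EtOH and 45.1, 50.3, 45.2 and 52.3 in KO-EtOH, without overlap (log2 fold change -0.63, edgeR adjusted p = 5.83e-04). Akirin2, known to carry proteasomes into the nucleus (-0.44, edgeR adjusted p = 0.00119), and Sem1, the smallest lid subunit (-0.39, edgeR adjusted p = 0.0132), were the others. With ethanol in wild type 3 of the 8 rose (37.5%, against 17.6% of all tested genes): Zfand5 (0.50), Ube3c (0.30) and Akirin2 (0.24). On the control diet Sem1 was lower in the knockout (-0.44, edgeR adjusted p = 0.0188).

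Among the genes of p97 and the shuttle proteins that bring substrates, Sqstm1, the autophagy receptor for ubiquitin, was higher in the ethanol-fed knockout (0.66, edgeR adjusted p = 0.0282). Sqstm1 also rose with ethanol in both genotypes, by 0.76 in wild type and 1.18 in the knockout. It went from 399 ± 67.6 CPM in WT-ctr to 676 ± 224 in WT-EtOH (SD, n = 4), and from 469 ± 100 in KO-ctr to 1070 ± 189 in KO-EtOH. Ubqln4 passed the interaction test (0.74, edgeR adjusted p = 0.0454). Among the ubiquitin and E1 genes, Uba6 was higher (0.47) and Rps27a was lower (-1.04) in the ethanol-fed knockout. Rps27a codes for ubiquitin fused to a ribosomal protein, and its low level (2.47 to 5.12 CPM on average in the 4 groups) is uncertain because ribosomal protein genes share reads with near-identical copies. Ubb rose with ethanol in the knockout (0.62, edgeR adjusted p = 0.0251).

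Of 10 tested targets of NRF2, a factor that binds the ARE as NRF1 does, 5 rose and 2 fell with ethanol in wild type (17.6% of all tested genes rose and 15.9% fell), and 6 rose and 0 fell in the knockout (7.0% and 7.11%). Gstm1 rose by 2.58 on the log2 scale in wild type (edgeR adjusted p = 1.45e-06) and 2.24 in the knockout, and Nqo1 by 2.66 and 2.38. Of 9 tested genes of ubiquitin ligases and of protein removal from the endoplasmic reticulum, 3 were lower and 0 higher in the ethanol-fed knockout. These are 33.3% and 0%, against 19.1% and 19.6% of all tested genes. Among the 3 was Derl1, a membrane protein of that removal (-0.44, edgeR adjusted p = 0.00341).

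All 49 genes were placed in GENCODE M21 on 16 chromosomes. Psmb5 and Psmb11, and likewise Psme1 and Psme2, lie close to each other on chromosome 14. Exons of 4 of them (Psmb5, Psmd1, Psmg3 and Psme2b) overlap another gene on the same strand and those of 10 overlap one on the other strand, among them Psmb7 with Nek6, Psma4 with AY074887, Psmd13 with Sirt3 and Psme1 with Emc9. The strand setting of the counting is not stated, so counts of these genes could include their partners' reads. Psme2b is a single-exon copy of Psme2, and how reads divide between the pair is uncertain.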

How the data were processed

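PolyA RNA of 16 mouse liver libraries (NEBNext stranded kit, single 75 bp reads, per the labels' protocols) was given as 1 table of raw counts per gene symbol, deposited by the authors. Per the submitters' processing notes, Trimmomatic 0.36, HISAT2 2.1.0, HTSeq and GRCm38 were used; for HTSeq, no version or strand option was found in these notes. Rows with no symbol (0.227 to 0.479% of counts) were left out, and 24 symbols had been turned into dates. Genes passing filterByExpr (14346) were fitted in edgeR 4.0.16 (TMM scaling, robust quasi-likelihood fit, 1 mean per group, 12 residual degrees of freedom, R 4.3.3), with Benjamini-Hochberg adjustment over all of them and a threshold of 0.05. The SE of a fold change was the log2 fold change over the square root of F. CPM used TMM library sizes. No 2 libraries were identical (highest r 0.9905). The fit was run on simulated counts whose changes were larger than any called among the members. That run does not measure how well such smaller changes are found. Genes with values per library were, per role and comparison, the gene of smallest p, the 3 largest called rises and falls, and for other lists up to 3 called genes of smallest p. The members and lists were chosen with earlier results of these data known. Alternatives were other scalings, no filter, DESeq2 1.42.0, a replicate block, only the groups compared and libraries left out. Counting error is small for genes with many counts, such as Psmb4 (1983 counts in KO-ctr library 1), where the spread between libraries sets the precision. It is not small for genes with few counts, such as Psmg2 (211 in that library) and Psmg3 (131). Some genes of the lists are not reported here.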

Additional observations from a re-analysis of the deposited data

Results flagged for a closer look

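Of 88 groups of 4 libraries (22 genes), 5 held a library whose gap to the nearest other took up so much of the group's range (Dixon's test) as chance would give in about 1 group in 20. Psme1 was at 73.7 CPM in WT-EtOH library 2, with the others at 61.0 to 61.5. Psma6 was at 90.0 CPM in WT-ctr library 2, with the others at 106 to 108. Psmd7 was at 69.2 CPM in KO-ctr library 3, with the others at 75.6 to 76.7. Psmd8 was at 187 CPM in KO-EtOH library 1, with the others at 223 to 227, all above both control-diet groups. Psmg3 was at 4.64 CPM in WT-EtOH library 3, with the others at 6.50 to 6.59.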

How the results depend on the processing

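Of 851 recomputed values of the 37 gene and comparison pairs that passed the test, 633 kept direction and side of the threshold, 218 kept only the direction and 0 reversed. The counts of the 48 genes moved by more than 1.5 times as follows, and the cause was not tested unless given. With total counts as scaling, 0 were lower on the control diet, 7 higher and 3 lower in the ethanol-fed knockout, 11 lower with ethanol in wild type and 1 higher with ethanol in the knockout. With DESeq2 size factors 3 were lower with ethanol in the knockout. With no filter, which adjusts over 28367 genes, 2 were lower on the control diet and 9 in the ethanol-fed knockout, and with ethanol in the knockout 1 was higher and 3 lower. With only the groups compared, and so fewer libraries, 1 was higher and 8 lower in the ethanol-fed knockout. Without KO-EtOH libraries 1 and 2, 11 were lower there. DESeq2 called 1 higher in the interaction. The replicate numbers were not taken as pairs, since 9 of 24 same-number pairs had r above 0.1 (from -0.23 to 0.66 over 5000 genes), though between WT-ctr and KO-ctr r was 0.091, 0.159, 0.66 and 0.269 and a pairing there is not excluded. With a replicate block 1 (Psmd9, adjusted p = 0.0492) was higher on the control diet, where Psmb1 no longer passed (edgeR adjusted p = 0.0631), and 3 lower with ethanol in the knockout. Leaving out 1 library gave 0 to 1 higher and 2 to 6 lower on the control diet, 1 to 2 higher and 9 to 18 lower in the ethanol-fed knockout, 1 higher and 2 to 7 lower with ethanol in wild type, 1 to 2 higher and 3 to 6 lower with ethanol in the knockout, and 0 in the interaction. With only the 250 bases before the start searched, the ETS motif was in 31.7% of the promoters (7.05% of all) and the ARE core in 14.6% (10.1% of all), while the CCAAT box was in 36.6% against 34.5% of all, which turns its order. Genes under 10 CPM, such as Psmg3, rest on fewer counts than the others.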
